A study of Mus musculus with 4 samples.

Results

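Scavenger receptors are surface and lysosomal proteins with which macrophages bind and take up modified lipoproteins, bacteria, dying cells and haemoglobin complexes. They are not all of 1 family and are grouped into classes by their structure. The genes described here are 9 such receptors, picked by name with earlier results of the same comparison known: Marco and Msr1 of class A, Cd36, Scarb1 and Scarb2 of class B, Cd68 of class D, Olr1 of class E, Stab1 of class H and Cd163 of class I. All 9 were found by symbol among 28074 genes, and 8 passed a filter on low values, set at an average of 1 FPKM across the samples, Marco only through its R848 samples. Because the members were picked with the comparison of R848 with control in view, their values in it are a description, and no p-value of it is given for a single member.

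RNA sequencing measured leukaemic spleen cells from 2 mice, numbered 4050 and 4182. One group was treated with 10 µg/ml R848 for 3 days (n = 2, 1 sample per mouse) and the other received vehicle for the same time (control, n = 2, the same mice). R848 (resiquimod) is an imidazoquinoline drug that activates TLR7, a sensor of RNA in endosomes. Cells of both groups carried Dnmt3a fl/fl, Flt3 ITD/ITD and Mx1Cre, although the labels also write the Dnmt3a genotype as +/-, and the genotype was not resolved here. The Mx1 promoter that drives the Cre recombinase is known to respond to interferon. The labels do not give the animals' age or say when Cre was induced. The cells had been frozen, thawed and cultured with SCF, IL6 and IL3, and as far as the labels say they were not sorted. The stated aim was to learn which genes and pathways respond to R848.

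For every gene the table holds a log2 value in each sample, whose linear form the authors named FPKM, a level scaled by transcript length and library size. The linear values summed to between 950530 and 962001 per sample, and the number of reads behind each value is unknown. Sums so nearly equal are usual for TPM, in which each sample is scaled to 1 total, rather than for FPKM. Which of these the values are was not settled, so FPKM is used here as the deposited name; shares within a sample are the same on both scales, while differences between samples would shift by 1 factor per sample. Macrophage and monocyte markers were present: all 12 had a mean of at least 1 FPKM, and Lyz2, the lysozyme of myeloid cells, was at 6174 and 4920 FPKM with R848 and 5690 and 3993 FPKM in control (mice 4050 and 4182). The 8 neutrophil markers were more abundant, summing to 92364 and 51555 FPKM with R848 and to 81821 and 66682 FPKM in control. Of the 7 dendritic cell markers 6 had a mean below 1 FPKM, as did all 5 stromal markers and, of the 7 endothelial markers, 5, among them Cdh5 and Stab2.

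The promoter windows of 3 receptors are shown as examples. The first 2, Marco and Stab1, were higher with R848 in both mice and the other, Cd68, was lower in both mice. Each window runs 5′ to 3′ from 250 bases before the annotated start to 50 bases after it, from RefSeq on GRCm38.p6, and lies on the minus strand at chr1:120504975-120505274 for Marco, chr14:31168592-31168891 for Stab1 and chr11:69666121-69666420 for Cd68. Capitals mark matches to 1 of 4 motifs searched on both strands.
Marco: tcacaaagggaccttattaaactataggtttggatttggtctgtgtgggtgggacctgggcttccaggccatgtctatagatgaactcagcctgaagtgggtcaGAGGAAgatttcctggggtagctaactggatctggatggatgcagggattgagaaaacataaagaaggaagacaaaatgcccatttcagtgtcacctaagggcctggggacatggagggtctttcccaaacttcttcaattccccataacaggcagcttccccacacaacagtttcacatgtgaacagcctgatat
Stab1: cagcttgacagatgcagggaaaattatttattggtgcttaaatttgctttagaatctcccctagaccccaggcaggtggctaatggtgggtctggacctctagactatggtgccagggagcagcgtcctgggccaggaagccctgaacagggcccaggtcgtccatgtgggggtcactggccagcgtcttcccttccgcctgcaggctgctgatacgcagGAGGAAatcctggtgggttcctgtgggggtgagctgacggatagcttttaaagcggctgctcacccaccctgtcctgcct
Cd68: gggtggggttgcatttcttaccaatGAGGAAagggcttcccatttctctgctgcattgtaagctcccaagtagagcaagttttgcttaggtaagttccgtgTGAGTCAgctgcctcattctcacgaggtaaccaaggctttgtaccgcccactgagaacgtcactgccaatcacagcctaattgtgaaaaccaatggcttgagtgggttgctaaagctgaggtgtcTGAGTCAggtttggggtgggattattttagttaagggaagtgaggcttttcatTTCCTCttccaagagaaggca
The match in Marco is GAGGAA, the core that the myeloid factor PU.1 binds, with its first base 146 bases before the start (position -146). Stab1 has the same letters at position -30, and Cd68 has them at position -225 and, on the other strand, at position 30. Cd68 also has TGANTCA, the AP-1 motif, at positions -149 and -24. RefSeq windows were matched for 7 of the 9 receptors. The window of Scarb2, which was also higher in both mice, is not shown and has no match to the 4 motifs. GAGGAA was in 4 of these 7 (Marco, Stab1, Cd68 and Olr1), against 28.3% of all 32851 promoter windows, and TGANTCA was in 2 (Cd68 and Olr1), against 7.81%. AGGTCA, a nuclear receptor element, was in 2 (Cd36 and Olr1), against 16.3%. CACGTG, the E-box that lysosomal regulators bind, was in 0 of the 7 windows, against 7.15% of all windows. TGANTCA and CACGTG read the same on both strands, and the motifs did not overlap in the 3 windows shown. A match is a run of letters and no evidence of binding.

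Among the class A receptors, Marco was high with R848 and low in control, whereas Msr1 was expressed in all 4 samples. Marco, which binds bacteria and particles on macrophages (chromosome 1, 120474538 to 120505024, GRCm38), was at 103 FPKM in mouse 4050 and 86.5 FPKM in mouse 4182 with R848, against 1.32 and 0.125 FPKM in control. The groups did not overlap, and both R848 values lay far above both control values. The log2 difference, R848 minus control, was 5.48 in mouse 4050 and 6.28 in mouse 4182, with a mean of 5.88 ± 0.57 (SD over mice, n = 2), the 7th highest of 12612 genes tested. The linear ratio of R848 to control was 77.6 in mouse 4050 and 690 in mouse 4182, and the wider ratio rests on a control value of 0.125 FPKM. With a pseudocount of 0.1 in place of 1 the mean log2 difference of Marco was 7.38. Of the genes tested, 89.4% had a lower level than Marco with R848 and 0.777% in control. Genes averaging under 1 FPKM were left out of that set, and Marco stayed in only through its R848 samples. Nothing is therefore read from the share in control.

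Msr1, the class A receptor of modified low-density lipoprotein (chromosome 8, 39581685 to 39642673), was at 32.0 and 19.6 FPKM with R848 and at 26.2 and 15.0 FPKM in control, for mice 4050 and 4182. The groups overlapped, because the R848 value of mouse 4182 lay below the control value of mouse 4050. Within each mouse Msr1 was slightly higher with R848, by 0.28 and 0.37 on the log2 scale (mean 0.32 ± 0.065, SD over mice). Without the R848 sample of mouse 4050 or the control sample of mouse 4182 the difference of the group means was -0.016 or -0.062, and the mice are then not balanced between the groups. The ratio of Marco to Msr1, both scaled by length, was 3.21 and 4.41 with R848 and 0.0505 and 0.00837 in control.

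**Figure D1:**
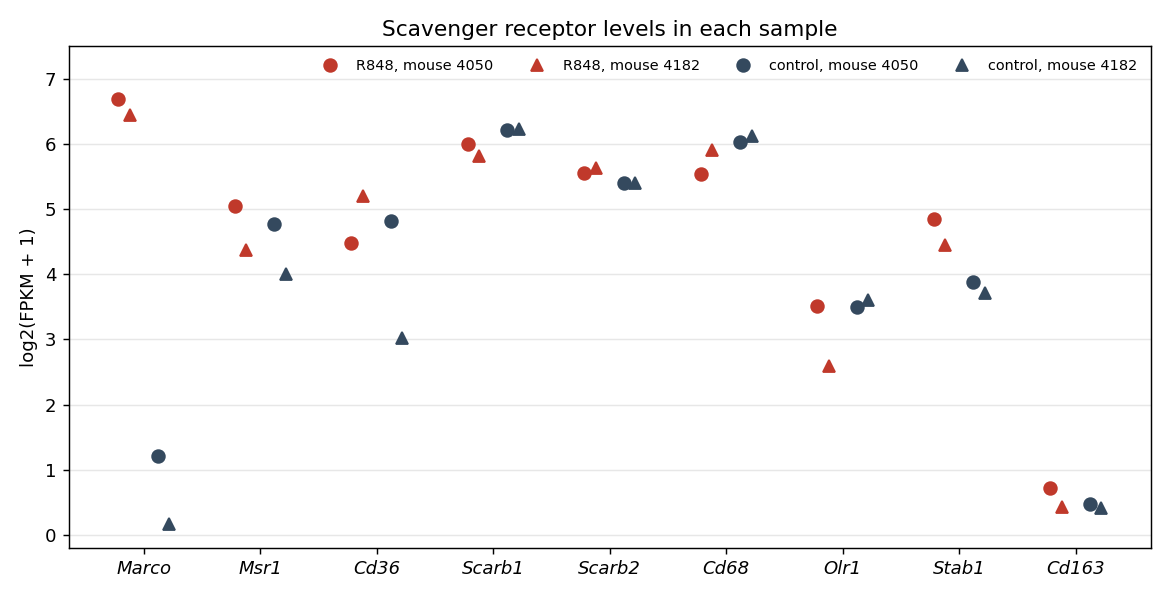
Level of each of the 9 receptors in each of the 4 samples, as log2(FPKM + 1), with R848 in red, control in blue, circles for mouse 4050 and triangles for mouse 4182. Marco stands at 6.70 and 6.45 with R848 and at 1.22 and 0.17 in control, while Cd163 lies below 1 in every sample.

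The class B receptors did not move together. They share a fold with an extracellular loop held by a pair of membrane anchors. Cd36, which takes up fatty acids and oxidized lipoproteins (chromosome 5, 17781690 to 17888801), was at 21.4 and 35.6 FPKM with R848 and at 27.2 and 7.09 FPKM in control, for mice 4050 and 4182. The groups overlapped, and the control sample of mouse 4182 was the low one. The log2 difference was -0.33 in mouse 4050 and 2.18 in mouse 4182 (mean 0.92 ± 1.78, SD over mice), so the direction was opposite in the mice and the spread exceeded the mean. Without the control sample of mouse 4050 the mean difference of Cd36 was 1.82, and without the control sample of mouse 4182 it was 0.021.

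Scarb1, which exchanges cholesterol with high-density lipoprotein (chromosome 5, 125277087 to 125341094), was at 62.8 and 55.5 FPKM with R848 and at 73.6 and 74.0 FPKM in control. Both R848 values lay below both control values, by 0.23 and 0.41 on the log2 scale in mice 4050 and 4182 (mean -0.32 ± 0.13, SD over mice). Scarb2, also called LIMP-2, which carries glucocerebrosidase to lysosomes (chromosome 5, 92441314 to 92506833), was at 46.1 and 48.4 FPKM with R848 and at 41.4 and 41.1 FPKM in control. Both R848 values of Scarb2 lay above both control values, with log2 differences of 0.15 and 0.23 (mean 0.19 ± 0.058, SD over mice). Summed over the 3 class B genes, the level was 130 and 140 FPKM with R848 and 142 and 122 FPKM in control.

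The remaining receptors spanned the range of the set. Cd68, a lysosomal glycoprotein known as macrosialin (chromosome 11, 69664213 to 69666153), was at 45.6 and 59.3 FPKM with R848 and at 64.3 and 68.7 FPKM in control. Both R848 values of Cd68 lay below both control values, with log2 differences of -0.49 and -0.21 (mean -0.35 ± 0.20, SD over mice). Stab1, or stabilin 1, which clears acetylated lipoprotein and the matrix protein SPARC (chromosome 14, 31139013 to 31168641), was at 27.8 and 20.8 FPKM with R848 and at 13.7 and 12.2 FPKM in control. The groups did not overlap, and the log2 difference of Stab1 was 0.97 in mouse 4050 and 0.73 in mouse 4182 (mean 0.85 ± 0.17, SD over mice). The span of Stab1 overlaps that of Nt5dc2 on the opposite strand by 112 bases. Nt5dc2 itself was at 90.8 and 89.0 FPKM with R848 and at 113 and 104 FPKM in control, the opposite direction to Stab1.

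Olr1, also called LOX-1, a lectin-like receptor of oxidized low-density lipoprotein (chromosome 6, 129485244 to 129507165), was at 10.4 and 5.00 FPKM with R848 and at 10.3 and 11.2 FPKM in control. Of its 4 samples, the R848 sample of mouse 4182 was the low one and the others were close together. The log2 difference of Olr1 was 0.017 in mouse 4050 and -1.02 in mouse 4182 (mean -0.50 ± 0.73, SD over mice). Cd163, the receptor of haptoglobin-haemoglobin complexes (chromosome 6, 124304656 to 124330527), was at 0.648 and 0.347 FPKM with R848 and at 0.389 and 0.332 FPKM in control. Its mean over the 4 samples, 0.429 FPKM, left it out of the fit.

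**Figure D2:**
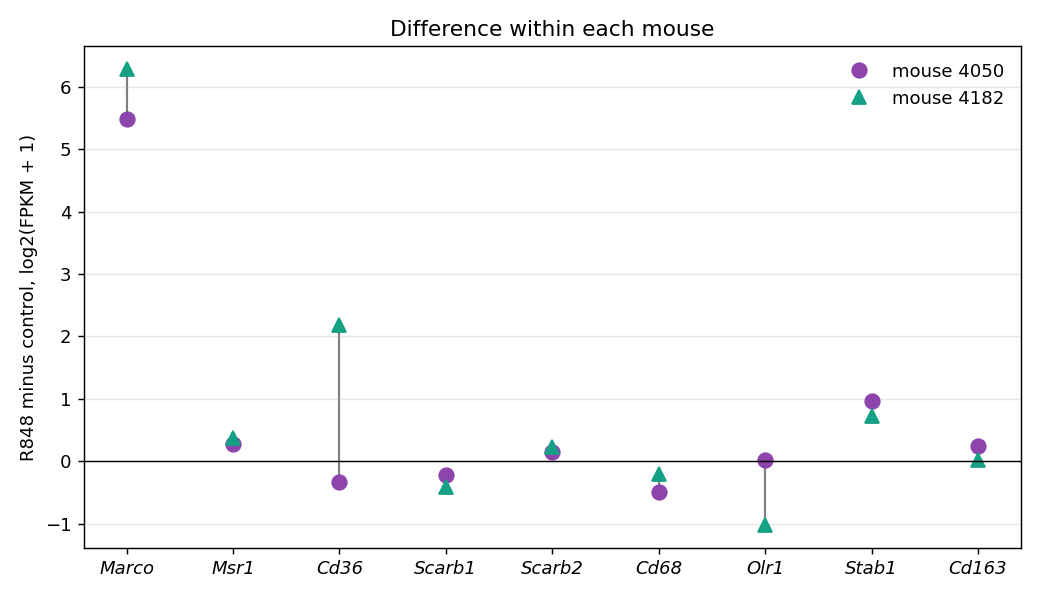
Difference between R848 and control within each mouse, in log2(FPKM + 1), for the 9 receptors, with circles for mouse 4050, triangles for mouse 4182 and a line joining the mice. Marco lies at 5.48 and 6.28, and Cd36 spans from -0.33 in mouse 4050 to 2.18 in mouse 4182.

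In a limma fit across all 12612 genes, 233 passed at a Benjamini-Hochberg adjusted p under 0.05, which is 1.85% of them, 185 higher and 48 lower. As a description of members picked on this comparison, and not as a test of them, 1 of the 8 receptors lay past that threshold as higher, where 1.47% of all genes did. With the mouse as a block 2 did, where 3.40% of all genes did (5.30% in either direction). Leaving out a sample leaves 1 sample in its group, and the spread comes from the other group. No count is read from such fits. With no filter on low values 0 receptors lay past the threshold, as did 0 of 21709 genes (3 receptors and 1882 genes were at an unadjusted p under 0.05 by limma). Among the 8, 4 were higher in both mice (Marco, Msr1, Scarb2 and Stab1) where 22.1% of all genes were, and 2 were lower in both (Scarb1 and Cd68) where 38.8% were. The groups did not overlap for 5 of the 8, against 42.2% of all genes. The median log2 difference was 0.26 over the 8 receptors and -0.078 over all genes tested. The members were chosen on this comparison, so nothing is read from these counts. In bulk samples, more cells of a type and more RNA per cell cannot be told apart.

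The order of the receptors by mean level differed between the groups in the place of Marco and in the order of Cd36 and Msr1, whose values overlapped in both groups. With R848 the mean levels ran from Marco at 94.6 ± 11.4 FPKM (SD, n = 2, as for the values that follow) through Scarb1 at 59.1 ± 5.14, Cd68 at 52.5 ± 9.70, Scarb2 at 47.2 ± 1.67, Cd36 at 28.5 ± 10.1, Msr1 at 25.8 ± 8.72, Stab1 at 24.3 ± 4.92 and Olr1 at 7.72 ± 3.84 to Cd163 at 0.497 ± 0.213. In that order the values of Scarb1, Cd68 and Scarb2 overlapped from each to the next, as did those of Cd36, Msr1 and Stab1. In control the order ran from Scarb1 at 73.8 ± 0.234 FPKM, Cd68 at 66.5 ± 3.12, Scarb2 at 41.3 ± 0.227, Msr1 at 20.6 ± 7.95, Cd36 at 17.2 ± 14.2, Stab1 at 12.9 ± 1.10 and Olr1 at 10.7 ± 0.623 to Marco at 0.724 ± 0.847 and Cd163 at 0.360 ± 0.0404. There the values of Msr1, Cd36 and Stab1 overlapped from each to the next, as did those of Marco and Cd163. Marco ranked 1st of 9 in both R848 samples, and 8th and 9th in the control samples of mice 4050 and 4182.

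Summed over the 9 receptors, the level was 349 and 331 FPKM with R848 and 259 and 230 FPKM in control, for mice 4050 and 4182. Without Marco the sum was 247 and 245 FPKM with R848 and 257 and 230 FPKM in control, so the groups overlapped. Marco made up 29.4% and 26.1% of the summed FPKM with R848, and 0.512% and 0.0546% in control. Scarb1 made up 17.97% and 16.8% with R848, against 28.5% and 32.2% in control, and Cd68 made up 13.1% and 17.9%, against 24.9% and 29.9%. These are shares of a sum that includes Marco, and the levels themselves differed less. The ratio of R848 to control in level was 0.852 and 0.750 for Scarb1 and 0.709 and 0.863 for Cd68.

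**Figure D3:**
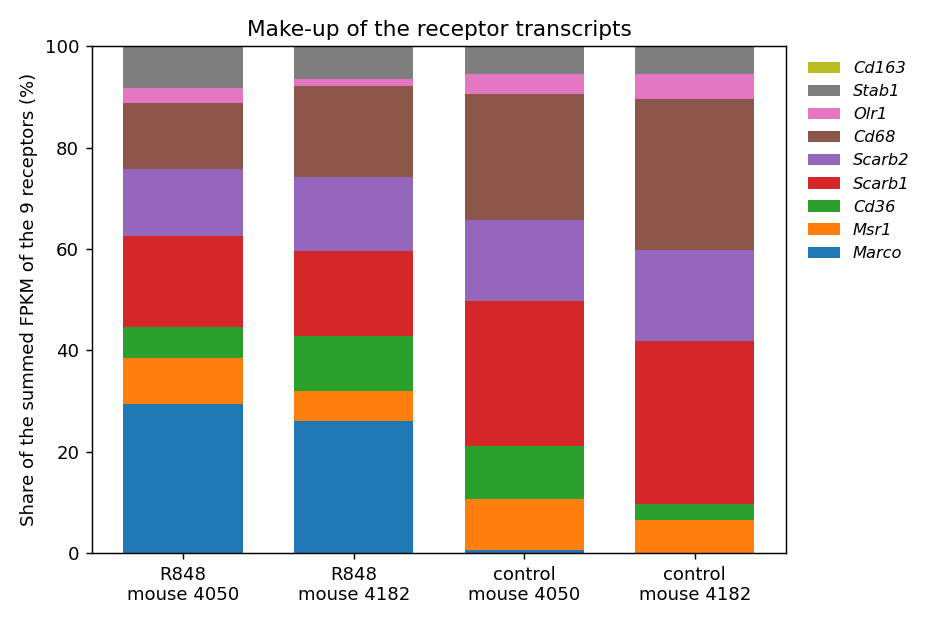
Share of each receptor in the summed FPKM of the 9 receptors, as stacked percentages for each sample. Marco fills 29.4% and 26.1% of the R848 bars and under 1% of the control bars.

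The mice were compared at equal treatment, a contrast the choice of members did not use. In a limma fit with the treatment as a covariate, mouse 4182 against mouse 4050, 172 of 12612 genes passed, which is 1.36%, 59 higher and 113 lower in mouse 4182. Of the 8 receptors 0 passed by limma, and 2, Msr1 and Marco, were at an unadjusted p under 0.05, as were 1266 of all 12612 genes. Msr1 was lower in mouse 4182, with log2 differences of -0.68 with R848 and -0.77 in control (mean -0.72, SE 0.18, limma adjusted p = 0.0846). Marco had differences of -0.24 with R848 and -1.05 in control (mean -0.64, SE 0.23, limma adjusted p = 0.295). The difference in control rests on 1.32 and 0.125 FPKM, near the floor, and Marco passed the filter only through its R848 samples. For Cd36 the difference between the mice was 0.71 with R848 and -1.80 in control (mean -0.55, SE 0.40, limma adjusted p = 0.742). The adjusted p of the other 5 receptors lay between 0.666 for Olr1 and 0.98 for Scarb2. This fit has 1 residual degree of freedom, so a p above the threshold does not show that the mice were alike.

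Markers of several cell types moved with R848. Of the 12 macrophage and monocyte markers 4 rose and 0 fell by limma, with a median log2 difference of 0.75. In the fit blocked by mouse 7 of them rose and 1 fell. Adgre1 (listed as Emr1), which encodes F4/80, was at 156 and 154 FPKM with R848 and 52.6 and 61.5 FPKM in control (log2 difference 1.43, limma adjusted p = 0.00709). Csf1r, the receptor of the macrophage growth factor CSF1, and Mertk, a receptor for dying cells, had log2 differences of 0.67 and 0.14 (limma adjusted p = 0.241 and 0.899). With the block Csf1r passed (limma adjusted p = 0.0215). Lyz2 had a log2 difference of 0.21 (limma adjusted p = 0.799). The 12 markers summed to 7780 and 7158 FPKM with R848 and to 6941 and 5267 FPKM in control. Most of each sum was 1 gene, Lyz2. The 8 B and plasma cell markers summed to 682 and 592 FPKM with R848 and to 33.3 and 34.3 FPKM in control, and 5 rose (6 with the block). Most of the R848 sum was 1 gene, Igkc, at 601 and 507 FPKM with R848 and at 4.90 and 2.74 FPKM in control. The 7 tested markers were all higher in both mice, with a median log2 difference of 1.77. The 5 megakaryocyte and platelet markers summed to 449 and 213 FPKM with R848 and to 99.9 and 84.99 FPKM in control, and 1 rose, Pf4, which was picked out after its values were seen (2 with the block). Of the 8 T and NK cell markers 4 were tested and 1 rose, with a sum of 199.8 and 206 FPKM with R848 and of 129 and 205 FPKM in control. Of the 8 neutrophil markers 0 passed in either direction with or without the block, the median log2 difference was -0.34, and 4 were lower in both mice. Of the 5 mast cell and basophil markers 0 passed, or 1 as higher with the block, and they summed to 2036 and 1250.3 FPKM with R848 and to 1431 and 1510.0 FPKM in control. The part of these cell types in the receptor values was not tested.

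Other receptors of the scavenger classes were set beside the 9. Of 28 listed genes 15 were tested, 2 rose and 1 fell by limma across all genes, and the median log2 difference was -0.13. Cxcl16, which is both a chemokine and the class G receptor, was at 22.3 and 19.3 FPKM with R848 and at 5.30 and 3.93 FPKM in control (log2 difference 1.96, limma adjusted p = 0.00621). Scarf1, an endothelial and myeloid receptor of class F, rose by 1.53 (limma adjusted p = 0.0142), a call that ended under quantile normalization. Mrc1, the mannose receptor, was at 8.50 and 3.11 FPKM with R848 and at 67.7 and 33.3 FPKM in control (log2 difference -2.96, limma adjusted p = 0.0228), a call that ended under both rescalings. With the mouse as a block 3 rose and 3 fell. These calls come from the same samples as the 9 receptors and share their controls.

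Ligands and cargo of the receptors changed in both directions. Of 25 listed genes 12 were tested, 2 rose and 2 fell by limma, and the median log2 difference was 0.11. Saa3, an acute phase apolipoprotein, was at 3581 and 2270 FPKM with R848 and at 104 and 125 FPKM in control (log2 difference 4.63, limma adjusted p = 3.2e-04). Apoc2, the cofactor of lipoprotein lipase, rose by 1.72 (limma adjusted p = 0.00552). Lpl, the lipase itself, was at 8.999 and 11.0 FPKM with R848 and at 62.2 and 45.6 FPKM in control (log2 difference -2.31, limma adjusted p = 0.00368). Mfge8, which bridges dying cells to integrins, had a log2 difference of -1.27 (limma adjusted p = 0.034), and this call ended under both rescalings.

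Genes that act after uptake were listed as well. Of 27 partners and downstream genes 24 were tested, 2 rose and 0 fell by limma, or 4 and 0 in the blocked fit; their median was 0.087. The 2 were Fth1, the ferritin heavy chain, and Blvrb, a biliverdin reductase, with log2 differences of 1.32 and 1.15 (limma adjusted p = 0.0266 and 0.0466), and both calls ended under both rescalings. Of 29 lipid uptake, storage and efflux genes 28 were tested, 2 rose and 1 fell, or 2 and 2 with the block, with a median of -0.031. Pltp, a phospholipid transfer protein, was at 21.6 and 14.3 FPKM with R848 and at 2.12 and 1.97 FPKM in control (log2 difference 2.61, limma adjusted p = 0.0038). Abca1, a cholesterol exporter, rose by 1.75 (limma adjusted p = 0.0409, a call that ended under both rescalings). Fabp4, a fatty acid carrier, was at 1.13 and 0.325 FPKM with R848 and at 10.3 and 6.86 FPKM in control. Its log2 difference was -2.49 (limma adjusted p = 0.0125, a call that ended under quantile normalization). Fabp4 passed the filter only through its control samples, and with a pseudocount of 0.1 the difference was -3.56.

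Of 30 lysosomal genes, partners of Cd68 and Scarb2 in that compartment, 29 were tested, 0 rose and 1 fell by limma, with a median of 0.053. The gene was Atp6v0d2, a subunit of the proton pump, at 0.0748 and 0.105 FPKM with R848 and at 8.84 and 6.30 FPKM in control (log2 difference -2.96, limma adjusted p = 0.00306). Atp6v0d2 passed the filter only through its control samples, and with a pseudocount of 0.1 the difference was -5.32. Of 27 transcription regulators of macrophage receptor genes, all tested, 4 rose and 1 fell, or 4 and 2 with the block, with a median of -0.12. Irf1, an interferon-responsive factor, rose by 2.07 (limma adjusted p = 0.00351). Maf, a macrophage factor, rose by 1.51 (limma adjusted p = 0.0231), a call that ended under both rescalings. Hif1a, named after its values were seen, also rose. Klf4, a monocyte factor, was at 1.03 and 0.886 FPKM with R848 and at 5.90 and 6.51 FPKM in control (log2 difference -1.88, limma adjusted p = 0.00885).

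With the mouse as a block, alone or with each rescaling, none of 17 genes named above as rising or falling by limma lost its call. These 17 include the macrophage marker Adgre1 but not Pf4 and Hif1a. Those blocked fits have 1 residual degree of freedom. In the fit without a block, many of these calls changed when a sample was left out. Such a fit has 1 sample in a group, 1 residual degree of freedom and mice not balanced between the groups. It therefore does not show which calls depend on a sample. The log2 differences of the 17 genes kept their sign in these fits, but their size moved. That of Blvrb ran from 0.87 to 1.42, that of Abca1 from 1.36 to 2.13 and that of Mrc1 from -3.56 to -2.35.

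**Figure D4:**
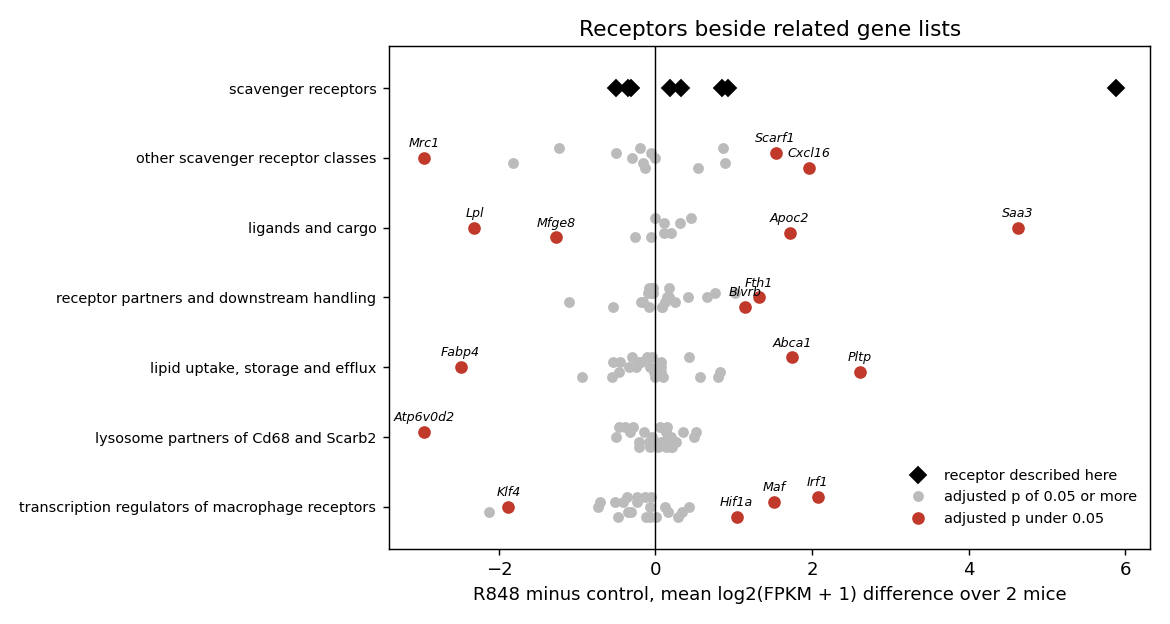
Mean R848 minus control difference over the 2 mice, in log2(FPKM + 1), for the 8 receptors in the fit (black diamonds, top) and for tested members of 6 related gene lists, with genes at a limma adjusted p under 0.05 in red and the others in grey. Marco at 5.88 lies to the right of every other gene plotted, and Saa3 at 4.63 is the nearest to it.

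The tested genes whose profiles over the 4 samples lay nearest to each receptor were found by the Euclidean distance between log2(FPKM + 1) values centred on their mean. The other receptors of the set and genes with predicted, clone, Riken or pseudogene names were left out of the search. Nearest to Marco were Irg1 (now Acod1), which makes itaconate, at a distance of 1.02 and Igkc, the immunoglobulin kappa constant chain, at 1.04. For Cd36 they were Slc6a12 and Tmem150b at 0.772 each. Slc6a12, a betaine and GABA transporter, was at 3.15 and 4.39 FPKM with R848 and at 3.38 and 1.35 FPKM in control, with its lowest value in the control of mouse 4182 as for Cd36. For Olr1 they were Il18rap, a subunit of the interleukin-18 receptor, at 0.0935 and Nmb, neuromedin B, at 0.106. Il18rap was at 51.8 and 27.5 FPKM with R848 and at 50.6 and 51.9 FPKM in control, low in the same sample as Olr1.

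For the other receptors the distances of the 2 nearest genes lay between 0.0137 and 0.1003. Lmo1 (0.0567) and Dpy19l3 (0.1003) lay nearest to Msr1, and Casp8ap2 (0.0504) and Bank1 (0.0520) to Stab1. Timm21 (0.0156) and Fkbp1a (0.0243) lay nearest to Scarb1, and Pemt (0.0559) and Foxj2 (0.0594) to Cd68. Zfp948 (0.0137) and Lamp1 (0.0166), a major lysosomal membrane protein, lay nearest to Scarb2. Lamp1 was at 399 and 415 FPKM with R848 and at 357 and 352 FPKM in control. Over 4 samples that share their libraries, many genes have like profiles by this measure.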

How the data were processed

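RNA of 4 samples was sequenced as paired reads of 150 nucleotides, per the labels' protocols, which mention ribosomal RNA depletion as well as a stranded mRNA kit. The submitters' processing notes list kallisto and build mm10. Versions, transcript set and use of strand are not given in the sources used here. Expression was deposited by the authors as log2 FPKM with a minimum of 0, so log2(FPKM + 1) was assumed. The labels give the same planned read number for all samples, and the number of mapped reads is unknown.

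Of 28192 rows, 27 with date-like names and 91 repeats (the highest mean kept) were dropped. The 12612 genes averaging 1 FPKM or more were fitted with limma 3.58.1 in R 4.3.3 (trended prior, two-sided, Benjamini-Hochberg adjustment, threshold 0.05), without a block. Same-numbered samples come from the same mouse, per the labels, and their deviations from the group means correlated at 0.289 across genes. The fits were also run on simulated data with independent noise in each sample. Those data lack the correlation between samples of a mouse, so they do not test the unblocked fit on paired samples.

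The receptors and lists were chosen with earlier results of these data known. The text names all 9 receptors, from each list the 3 rising and 3 falling genes with the smallest adjusted p, the 2 genes nearest to each tested receptor, and 4 macrophage markers; exceptions are marked, and 1 regulator that passed is not reported here. Of the list entries, 3 went by an older symbol and 2 were unmatched. Coordinates come from GENCODE M21. Alternatives were a pseudocount of 0.1, no filter, a filter of 5 FPKM, 2 rescalings (quantile normalization and the median log ratio), the mouse as a block and leaving out each sample. The block with each rescaling was added after seeing the data.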

Additional observations from a re-analysis of the deposited data

Results flagged for a closer look

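For 6 of the genes named by rule the difference between R848 and control had opposite signs in the mice. The gap between the mice was not tested, because each mouse has 1 sample per treatment. For Cd36 the log2 difference in mouse 4182 exceeded that in mouse 4050 by 2.51, with 2.18 against -0.33. The gap of Cd36 lay mainly in the controls, where mouse 4182 had 7.09 FPKM and mouse 4050 had 27.2 FPKM. For Olr1 the difference in mouse 4182 minus that in mouse 4050 was -1.04, with -1.02 against 0.017, and the R848 sample of mouse 4182 was the low one. For Mertk it was 0.76, with 0.52 in mouse 4182 and -0.24 in mouse 4050. Of the genes whose profiles lay nearest to Cd36, Slc6a12 had a gap of 1.28 and Tmem150b of 1.40, and Il18rap, near Olr1, had a gap of -0.92. These 3 genes were picked for profiles like those of Cd36 and Olr1, so their gaps are not separate evidence.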

How the results depend on the processing

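Genes called between R848 and control numbered 233, against 669 with the mouse as a replicate block, 88 after quantile normalization (76 higher, 12 lower), 107 after median log ratio scaling (92 higher, 15 lower), 490 and 720 with the block and each of these rescalings in that order, and 0 with no filter on low values (1882 at an unadjusted p under 0.05 by limma). Leaving out each sample gave 56 to 395. Receptors called numbered 1, against 2 with the block, with or without rescaling, and 0 with no filter. Between the mice, 172 genes were called, against 80 after quantile normalization and 0 with no filter (1535 at an unadjusted p under 0.05 by limma). Leaving out a sample leaves no residual degrees of freedom there, so it was not run. Distinct genes of the 6 related lists called numbered 18, against 9 after quantile normalization and 11 after median log ratio scaling; the block gave 25. When a sample was left out, the log2 difference of Lyz2 ran from -0.046 to 0.46 and that of Mertk from -0.15 to 0.44, both below 0 without the control sample of mouse 4182. Across 7 alternatives the mean differences of Marco, Stab1, Scarb2 and Cd36 stayed above 0 (5.36 to 7.38, 0.65 to 1.05, 0.15 to 0.27 and 0.021 to 1.82), those of Scarb1, Cd68 and Olr1 stayed below 0 (-0.40 to -0.23, -0.53 to -0.16 and -0.97 to -0.037), and that of Msr1 ran from -0.062 to 0.71. Where a sample was left out, the mice were not balanced between the groups. A constant sign of the mean does not show agreement of the mice: within mice 4050 and 4182 the differences were -0.33 and 2.18 for Cd36 and 0.017 and -1.02 for Olr1. The causes were not tested.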
